A study of Triticum aestivum with 18 samples.

Results

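Roots and leaves of wheat seedlings (cultivar Jimai 22) that had received 5 mM 3-MA and 150 mM NaCl were compared over every gene of the deposited count table. The comparison rests on 6 of the 18 RNA-seq libraries of the study, 3 from roots (TMG) and 3 from the third leaves (TMY), and on 134610 genes. All these seedlings carried both agents: 3-MA (3-methyladenine, an inhibitor of autophagy) was added 5 h before the salt, and tissue was taken 4 d later, each replicate being a mix of 10 roots or leaves. Untreated roots and leaves (CG and CY) and those given 150 mM NaCl without 3-MA (TG and TY), with 3 libraries in each group, served to see whether the root to leaf difference was particular to the treatment. Seedlings given 3-MA without salt were not analysed here, so 3-MA and NaCl cannot be told apart in the comparison with controls.

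Autophagy wraps cytoplasm in membranes and delivers it to the vacuole for breakdown, and 3-MA blocks the lipid kinase on which the first membranes depend. Leaves fix carbon in chloroplasts and assemble a waxy cuticle, whereas roots take up water and ions through cell walls that peroxidases and laccases stiffen, and salt reaches the shoot only through them. Bread wheat carries related A, B and D subgenomes, so most genes have near-identical copies whose reads a counter can split unevenly. The strand setting of the counting is not given in the sources used here, and reads of overlapping genes on opposite strands may not be separated.

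The root libraries held 29631294 to 32966728 counts and the leaf libraries 27218551 to 33150906. Expression is given as CPM (counts relative to library size, scaled with TMM factors over the 18 libraries), and differences as the log2 fold change of roots over leaves, so that a positive value is higher in roots. The quasi-likelihood test of edgeR was used, and genes whose p after Benjamini-Hochberg adjustment did not exceed 0.05 were called. The labels describe seedlings of separate pots as the replicates, without saying which root and leaf libraries share a pot. The root libraries resembled each other closely (r = 0.986 to 0.991 of log2(CPM + 1) across genes). Leaf replicate 2 stood apart, with r = 0.969 and 0.956 to the other leaf libraries, which had 0.984 between themselves. It was more than 2-fold below both other leaf libraries in 3140 of the 54167 genes with a mean of 1 CPM or more in leaves, against 288 for replicate 1 and 624 for replicate 3. Of the 2104 genes among those 3140 that were called in controls, 1478 (70.2%) were higher in control roots, against 55% of all control calls. Results that rest on leaf replicate 2 are therefore given with and without it.

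The labels were first checked against leaf and root markers. The chlorophyll a-b binding proteins, which hold the light-harvesting pigments, summed to 14.8, 16.8 and 22.0 CPM in the 3 root libraries and to 9216, 13430 and 8083 CPM in leaf replicates 1, 2 and 3. The Rubisco small chain genes, coding for a subunit of the enzyme that fixes CO2, summed to 2.18, 0.928 and 3.06 CPM in roots and 7053, 14380 and 9170 CPM in leaves. Both sums were low in every root library, far below every leaf library. Root markers were less clear-cut: the list of CASP-like and Casparian strip proteins had 44 genes higher in roots and 19 higher in leaves of 85 tested, and nicotianamine and deoxymugineic acid synthesis had 2 and 4 of 9. The ammonium and nitrate transporters had 11 genes higher in roots and 0 higher in leaves of 16 tested, with summed levels of 292.7 to 335.5 CPM in roots and 172.2 to 307.2 CPM in leaves, which overlapped. Over all genes tested, 34.7% were higher in roots and 26.4% in leaves.

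Of 74973 genes that passed the low-count filter, 45828 were called (61.1%), 26049 higher in roots (34.7%) and 19779 higher in leaves (26.4%). The filter could be passed by counts in a single organ. A gene without a count in the other organ could then be called only on the side that passed it. Among the tested genes 1138 had no count in roots and 3983 had none in leaves. When libraries were scaled by size alone, the split of the calls was 33157 to 15882, or 67.6% higher in roots in place of 56.8%. That scaling shifted the median of the tested genes by 0.28 (log2) towards roots, and leaving out the authors' new genes moved it by 0.11 towards leaves, so differences below about these sizes depend on the scaling. A log2 fold change of 3 or more in size was reached by 17317 called genes (23.1%), 10778 of them higher in roots. The 95% interval lay within 0.5 of 0 on the log2 scale for 5007 genes (6.68%) and within 1 for 23494 (31.3%). Another 10480 uncalled genes had intervals that reached beyond 1, and for these no difference was detectable at this replication. At least 1 CPM in all 3 root libraries with no count in leaves was found for 2093 genes, and the reverse for 727. Annotated genes were called higher in roots in 38.0% and in leaves in 24.9% of those tested. New genes, those assembled by the authors outside the annotation, went the other way, with 17.6% higher in roots and 34.5% higher in leaves. The subgenomes were alike, with 33.6% to 35.8% of genes higher in roots and 26.2% to 26.5% higher in leaves.

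The photosynthesis lists were higher in leaves. Of 25 Rubisco small chain genes, 24 were tested, and each of the 24 was higher in leaves, with a median log2 fold change of -12.63, or -12.24 with the 7 genes without a count in roots set to a floor of 3 counts. TraesCS5B02G162800 (chromosome 5B, 300097036 to 300098231, minus strand, in the Chinese Spring assembly that the authors used) had 0.272, 0.0952 and 0.317 CPM in roots and 1127, 2059 and 1415 CPM in leaves. Its log2 fold change was -12.71 ± 0.51 (SE) with an edgeR adjusted p of 9.39e-07. The other small chain genes among the most abundant leaf genes were TraesCS5A02G165400, TraesCS5A02G165700, TraesCS5B02G162600, TraesCS5D02G169900 and TraesCS5D02G169600, with leaf means of 998 to 1512 CPM and root means of 0.0889 to 0.584 CPM. In each of these 6 genes leaf replicate 2 was the highest leaf library. In bulk tissue, fewer cells of a type and less RNA per cell cannot be told apart.

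**Figure D1:**
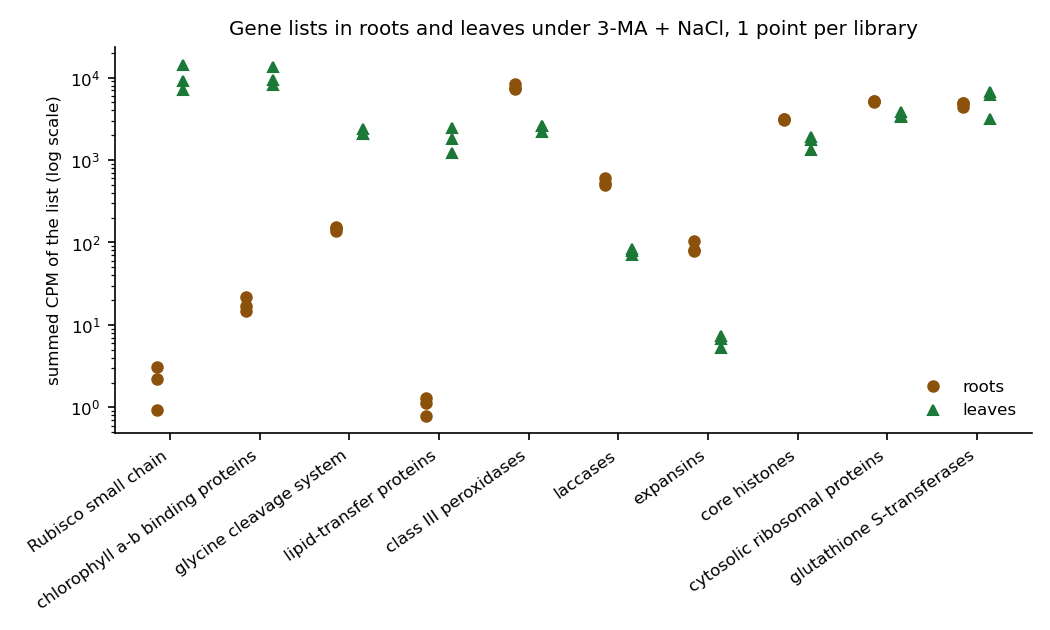
Summed CPM of 10 gene lists (log scale) in the 3 root libraries (brown circles) and the 3 leaf libraries (green triangles) under 3-MA + NaCl, 1 point per library. Rubisco small chain and lipid-transfer protein genes stay between 0.789 and 3.06 CPM in roots and at 1206 CPM or more in leaves, whereas the glutathione S-transferases overlap between the organs.

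Light harvesting and carbon fixation followed the same pattern. Of 91 chlorophyll a-b binding protein genes, 51 were tested and 51 were higher in leaves, with a median log2 fold change of -10.10, or -9.49 with 11 genes set to the floor. TraesCS2A02G187200 had 0.0272, 0.309 and 0.264 CPM in roots and 692, 790 and 533 CPM in leaves, a log2 fold change of -11.66 ± 0.55 (SE, edgeR adjusted p = 1.52e-06). The member with the highest root level, TraesCS5B02G175000, differed far less, with 5.36, 5.28 and 5.97 CPM in roots and 13.7, 14.3 and 13.4 CPM in leaves. Each of 10 photosystem subunits tested and each of 6 Calvin cycle genes was higher in leaves too. Phosphoribulokinase TraesCS6B02G294700, which regenerates the CO2 acceptor, had 0.0528 to 0.136 CPM in roots and 281, 511 and 279 CPM in leaves. Ferredoxin--NADP reductase TraesCS7A02G020500, which passes electrons to NADP, had no count in roots and 291, 389 and 309 CPM in leaves, at least 12800-fold higher against a floor of 3 counts over the root group. The M-type thioredoxin TraesCS5B02G111800, a redox regulator of chloroplast enzymes, was at least 7700-fold higher, with 162, 245 and 191 CPM in leaves. Pigment synthesis differed less: 18 of 20 genes of chlorophyll and carotenoid synthesis were higher in leaves, with a median log2 fold change of -2.70 against 0.13 over all genes tested. Zeaxanthin epoxidase TraesCS2A02G317000, of the xanthophyll cycle, had 11.4, 10.3 and 13.3 CPM in roots and 172, 213 and 174 CPM in leaves.

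Enzymes of photorespiration, which recycles the product of oxygen fixation by Rubisco, were among the abundant leaf genes. Serine hydroxymethyltransferase TraesCS4A02G246100 had 23.3, 24.7 and 26.0 CPM in roots and 777, 1368 and 596.5 CPM in leaves, a log2 fold change of -5.21 ± 0.35 (SE, edgeR adjusted p = 7.41e-06). The glycine cleavage P protein TraesCS3D02G250600 had 34.6, 33.4 and 28.9 CPM in roots and 759, 822 and 768 CPM in leaves. Of the 8 glycine cleavage genes 5 were higher in leaves and 3 in roots, so the list had no common side. Thiamine thiazole synthase TraesCS7A02G376800, an enzyme of vitamin B1 synthesis, had 51.4, 76.7 and 64.6 CPM in roots and 1010, 1203 and 1168 CPM in leaves.

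Of 49 genes for non-specific lipid-transfer proteins, which carry lipids to the cell surface, 21 were tested and 21 were higher in leaves. In 14 of them roots had no count, so these passed the filter through leaves alone and their side was set by it. TraesCS3D02G052100 had 845, 1136 and 511 CPM in leaves and a single count over the 3 root libraries, a ratio of 98200 with a 95% counting interval of 17600 to 3880000. Of 21 YABBY factors, known for setting leaf polarity, 7 were tested and 6 were higher in leaves, against 26.4% of all genes tested. Roots had no count in 4 of the 7, whose side was set by the filter in the same way. A glycine-rich protein gene new to the annotation (chromosome 7D, 185926596 to 185927858) had 404, 438 and 170 CPM in leaves and no count in roots, at least 13400-fold higher. Peroxidase TraesCS6B02G063900 went against its family, with 628, 348 and 528 CPM in leaves and no count in roots, at least 19600-fold higher.

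The most abundant strongly different root genes included glutamine synthetase, phenylalanine ammonia-lyase and alcohol dehydrogenase genes. Glutamine synthetase, which fixes ammonium into glutamine, was represented by related genes on 4D, 4B and 4A. TraesCS4D02G240700 (chromosome 4D, 403145655 to 403148815, plus strand) had 844, 823 and 967 CPM in roots and 18.6, 15.2 and 20.2 CPM in leaves, a log2 fold change of 5.61 ± 0.21 (SE, edgeR adjusted p = 8.19e-07). TraesCS4B02G240900 and TraesCS4A02G063800 had root means of 650 and 543 CPM and leaf means of 29.2 and 26.8 CPM. Phenylalanine ammonia-lyase, which opens the path to lignin and flavonoids, was higher in roots as TraesCS6B02G258400, with 809, 739 and 769 CPM in roots and 41.6, 11.4 and 43.3 CPM in leaves. Another gene for this enzyme, TraesCS6D02G212200, had 381, 366 and 360 CPM in roots and 42.1, 10.0 and 44.4 CPM in leaves. In both genes leaf replicate 2 was the lowest leaf library and no leaf library reached the roots.

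Alcohol dehydrogenase, the last enzyme of ethanol fermentation, had 3 genes among those named. ADH1A (TraesCS4D02G103000) had 313, 296 and 373 CPM in roots and 16.2, 4.82 and 17.4 CPM in leaves. ADH1D (TraesCS4B02G106300) had 303, 281 and 330 CPM in roots and 11.6, 5.27 and 12.4 CPM in leaves. ADH2D (TraesCS4A02G202300) had 155, 152 and 176 CPM in roots and no count in leaves, at least 5040-fold higher.

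Among genes of the PR-1 type, coding for secreted proteins that mark pathogen responses, 3 were named for their abundance or fold in roots. PR-1-6 (TraesCS5B02G442900) had 376, 297 and 291 CPM in roots and a single count in leaves, a ratio of 30100 with a 95% counting interval of 5400 to 1190000. PR-1-8 (TraesCSU02G233000) had 364, 257 and 245 CPM in roots and no count in leaves, at least 8990-fold higher. PR-1-12 (TraesCS3D02G530800) had 223, 201 and 119 CPM in roots and no count in leaves, at least 5690-fold higher. The wider list of pathogenesis-related proteins, chitinases and thaumatins had 97 genes tested, of which 15 had no count in leaves and could be called only towards roots. It had 47 genes higher in roots and 18 in leaves (48.45% and 18.56%), against 34.7% and 26.4% over all genes tested. Its most abundant leaf member, the PR-4 protein Wheatwin-1 (TraesCS3A02G517100), had 124, 97.9 and 141 CPM in roots and 116, 80.7 and 423 CPM in leaves, so that the organs overlapped (log2 fold change -0.77, edgeR adjusted p = 0.262). Without leaf replicate 2 it was called higher in leaves (-1.16, adjusted p = 0.0348), and without leaf replicate 3 the direction turned (0.30, adjusted p = 0.286).

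Cell wall genes were mostly higher in roots. Of 307 class III peroxidases tested, which cross-link wall polymers with hydrogen peroxide, 248 were higher in roots and 26 in leaves, and the list summed to 7275 to 8382 CPM in roots and 2159 to 2617 CPM in leaves. Their median log2 fold change was 6.30, or 4.94 with genes at 0 in an organ set to the floor of 3 counts. TraesCS2A02G509800 and TraesCS7D02G334300 had no count in leaves and root means of 102 and 97.1 CPM. TraesCS7D02G347300, the family's highest root gene, was shared by both organs, with 316, 256 and 254 CPM in roots and 71.1, 37.8 and 43.8 CPM in leaves. Laccases, which polymerise lignin, had 32 genes higher in roots and 11 in leaves of 47. TraesCS1A02G043900 had 89.6, 75.2 and 71.0 CPM in roots and 0.979, 0 and 0.357 CPM in leaves. Dirigent proteins, which steer lignan coupling, had 42 and 16 of 60, and TraesCS5A02G386000 had 47.9, 36.0 and 38.5 CPM in roots and 2.94, 0.511 and 6.49 CPM in leaves. Leaves had no count in 104 of the 307 peroxidases, 15 of the 47 laccases and 18 of the 60 dirigent genes tested. These passed the filter through roots alone, so their side was set by it. Another 5, 6 and 7 genes had no count in roots and could be called only towards leaves. The calls of the 3 lists stand against 34.7% and 26.4% over all genes.

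Of 127 expansins, which loosen walls, 33 were tested, and 18 of these had no count in leaves and passed the filter through roots alone. Of the 33 tested, 32 were higher in roots and 1 in leaves, or 0 in leaves without root replicate 3. TraesCS5B02G494400 had 12.1, 18.1 and 11.2 CPM in roots and 3.46, 3.35 and 2.71 CPM in leaves. Of 21 cellulose synthases 18 were higher in roots and 0 in leaves (1 without the new genes), and TraesCS5B02G517500 had 247, 233 and 230 CPM in roots and 40.2, 53.0 and 34.6 CPM in leaves (log2 fold change 2.47 ± 0.19, SE). Xyloglucan endotransglucosylases cut and rejoin wall glucans. They were mixed, with 33 higher in roots and 23 in leaves of 71 (46.5% and 32.4%, against 34.7% and 26.4% over all genes). Their top root gene TraesCS2D02G431500 had 109, 113 and 130 CPM in roots and 164, 34.0 and 170 CPM in leaves. It was not called (log2 fold change -0.06, edgeR adjusted p = 0.92), and without leaf replicate 2 it was called higher in leaves (-0.51, adjusted p = 0.00307). Their top leaf gene TraesCS7D02G419400 had 38.2, 33.3 and 41.0 CPM in roots and 184, 146 and 187 CPM in leaves.

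Transport genes were divided between the organs. Each of 5 aquaporins, the water channels, was higher in roots, and TraesCS6B02G450000 had 262, 278 and 306 CPM in roots and 85.1, 131 and 138 CPM in leaves. A new ammonium transporter gene (chromosome 1B, 526747729 to 526750670) was the most abundant of its list in both organs, with 57.0, 44.3 and 54.0 CPM in roots and 88.3, 50.9 and 111 CPM in leaves (log2 fold change -0.69, edgeR adjusted p = 0.0553). It was called higher in leaves without leaf replicate 2 (-0.95, adjusted p = 0.000354), with TMM factors over the libraries of the fit (-0.76, 0.0448), with DESeq2 (-0.74, 0.0219) and with 18 libraries in one fit (-0.69, 0.0307), and was then the 1 gene of its list called in that direction. Phosphate and sulfate transporters had 16 higher in roots and 15 in leaves of 38, or 42.1% and 39.5%, against 34.7% and 26.4% over all genes tested. The sulfate transporter TraesCS3D02G288600 had 27.03, 27.4 and 45.7 CPM in roots and 7.95, 0.926 and 8.35 CPM in leaves. TraesCS2A02G508200, with the same domain, had 0.708 to 0.872 CPM in roots and 45.5, 47.2 and 33.4 CPM in leaves.

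Genes for sodium and potassium, the ions that salt stress sets against each other, showed organ-specific members but no common side. Sodium transporters and exchangers had 19 genes higher in roots and 17 in leaves of 49 (38.8% and 34.7%), and potassium transporters had 25 and 25 of 67 (37.3% and 37.3%). Over all genes tested the shares were 34.7% and 26.4%. The Na+/H+ exchanger gene TraesCS5D02G039900 (chromosome 5D, 40974527 to 40981138, plus strand) had 51.1, 48.3 and 43.2 CPM in roots and 0.173, 0 and 0.999 CPM in leaves. TraesCS5D02G038600, with the same domain on the same chromosome, was the reverse, with 6.48, 4.48 and 7.05 CPM in roots and 58.6, 88.5 and 58.4 CPM in leaves. Potassium transporter TraesCS5B02G197300 had 21.5, 25.2 and 27.3 CPM in roots and 129, 155 and 112 CPM in leaves. Potassium transporter TraesCS2D02G287300 overlapped, with 54.3, 54.7 and 59.0 CPM in roots and 60.3, 22.7 and 75 CPM in leaves.

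Of the histone, ribosome, proteasome, tubulin and actin lists, each had more genes higher in roots than in leaves. In that order the shares higher in roots were 85.3%, 77.3%, 46.0%, 72.2% and 49.0%. All genes tested also leaned to roots, with 34.7% higher in roots and 26.4% in leaves. Of 368 core histone genes tested, which package DNA and are made when cells divide, 314 were higher in roots and 8 in leaves, with a median log2 fold change of 3.77, and 13 were higher in leaves without leaf replicate 2 and 5 with library size only. Leaves had no count in 45 of the 368 histone genes, which could be called only towards roots. The summed histone levels were 3047 to 3175 CPM in roots and 1319 to 1881 CPM in leaves. The most abundant histone gene did not share this, since the H3 gene TraesCS7A02G067800 had 168, 172 and 185 CPM in roots and 184, 117 and 189 CPM in leaves. Cytosolic ribosomal proteins had 68 genes higher in roots and 1 in leaves of 88, with small differences (-0.46 to 1.10, median 0.54) and a leaf count of 0 without root replicate 1 or with library size only and 2 without the new genes, and ribosomal protein S4 gene TraesCS1D02G101600 had 185, 171 and 176 CPM in roots and 117, 130 and 102 CPM in leaves. Proteasome subunits had 29 and 0 of 63 with a median of 0.33, a size that depends on the scaling: 52 were called higher in roots with library size only, and 16 in roots and 3 in leaves without the new genes. Leaving out root replicate 1, 2 or 3 or leaf replicate 1 took the root count of the proteasome to 18, 17, 17 and 17, TMM factors over the libraries of the fit took it to 19, and the leaf count was 1 without leaf replicate 2. Their most abundant member TraesCS7B02G008100 had 66.7 to 68.9 CPM in roots and 65.7 to 71.4 CPM in leaves. Tubulins had 39 and 3 of 54, with 7 higher in leaves without leaf replicate 3 and 5 with DESeq2, with TMM factors over the libraries of the fit or without the new genes, and TraesCS1D02G353100 had 393, 385 and 355 CPM in roots and 150, 130 and 109 CPM in leaves. Actins had 25 and 5 of 51, the leaf count being 2 without root replicate 2 and 3 without root replicate 1 or 3 or leaf replicate 1 or 3, 2 with library size only and 9 without the new genes, and TraesCS3D02G370400 had 151, 142 and 153 CPM in roots and 30.01, 23.8 and 24.7 CPM in leaves.

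Glutathione S-transferases, which couple glutathione to reactive compounds, had 99 genes higher in roots and 64 in leaves of 204 (48.5% and 31.4%). The shares over all genes tested were 34.7% and 26.4%. Leaves had no count in 29 of the 204 genes, which could be called only towards roots. The list summed to 4377 to 4879 CPM in roots and 6081, 3171 and 6706 CPM in leaf replicates 1, 2 and 3. TraesCS7D02G030700 had 415, 391 and 453 CPM in roots and 422, 156 and 392 CPM in leaves, whereas TraesCS3B02G152200 had 1.14 to 1.90 CPM in roots and 405, 293 and 458 CPM in leaves. Catalases and superoxide dismutases, which remove hydrogen peroxide and superoxide, had 6 higher in roots and 11 in leaves of 18 (33.3% and 61.1%). Without root replicate 3 or without the new genes the root count was 3. Catalase TraesCS6D02G048300 was abundant in both, with 749, 710 and 704 CPM in roots and 1085, 1319 and 910 CPM in leaves (log2 fold change -0.62, edgeR adjusted p = 0.0227). That call was lost without root replicate 1, 2 or 3 (adjusted p = 0.0766, 0.0989 and 0.0813), with library size only (0.14) and with 18 libraries in one fit (0.388).

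Dehydrins and late embryogenesis abundant proteins had 4 genes higher in roots and 5 in leaves of 12 (33.3% and 41.7%), with 2 in roots without the new genes. All genes tested had 34.7% higher in roots and 26.4% in leaves. The group 3 late embryogenesis abundant gene TraesCS4B02G332800, coding for a hydrophilic protein that guards dried cells, had 1.85, 2.62 and 3.14 CPM in roots and 376, 498 and 441 CPM in leaves. Dehydrin WZY1-2 (TraesCS6D02G234700) had 61.9, 58.7 and 90.6 CPM in roots and 270, 155 and 277 CPM in leaves. Proline genes were higher in leaves in 7 of 11 (63.6%) and in roots in 2 (18.2%). The root count was 0 without root replicate 1, 2 or 3 or without the new genes, and 1 without leaf replicate 1 or 3, with TMM factors over the libraries of the fit, with DESeq2 or with 18 libraries in one fit. The breakdown enzyme proline dehydrogenase TraesCS1D02G212400 had 20.3, 17.1 and 14.1 CPM in roots and 41.0, 33.4 and 65.7 CPM in leaves. The synthesis enzyme P5CS TraesCS1B02G290600 had 36.8, 37.3 and 38.1 CPM in roots and 29.0, 29.6 and 22.4 CPM in leaves, a call (log2 fold change 0.47, edgeR adjusted p = 0.0192) that was lost without root replicate 1, 2 or 3 (adjusted p of 0.0561, 0.0619 and 0.0637) and without the new genes (0.116). Glutamate decarboxylases, which make GABA, had 9 higher in roots and 5 in leaves of 15 (60% and 33.3%), with 3 in leaves with library size only. TraesCS4B02G052300 had 116, 103 and 106 CPM in roots and 196, 145 and 177 CPM in leaves (log2 fold change -0.67, edgeR adjusted p = 0.00615), a call lost with library size only (0.0527). TraesCS4A02G262600 had 123, 111 and 115 CPM in roots and 184, 115 and 172 CPM in leaves, and was called only without leaf replicate 2 (adjusted p = 0.0864 with it, 0.000572 without it), with DESeq2 or without the new genes.

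Lipoxygenases, which start jasmonate synthesis, had 14 genes higher in roots and 19 in leaves of 42. TraesCS6D02G010100 had no count in roots and 317, 348 and 174 CPM in leaves, at least 11100-fold higher, while TraesCS4D02G035200 had 194, 175 and 193 CPM in roots and 121, 46.5 and 77.6 CPM in leaves. In the chalcone synthase family, which starts flavonoid synthesis, 7 genes were higher in roots and 6 in leaves of 15. TraesCS6B02G022500 of that family had no count in roots and 167, 177 and 112 CPM in leaves, at least 5970-fold higher. MATE transporters had 50 genes higher in roots and 51 in leaves of 144 (34.7% and 35.4%), sugar transporters 76 and 64 of 193 (39.4% and 33.2%), and auxin-inducible SAUR genes 53 and 20 of 95 (55.8% and 21.05%). Over all genes tested the shares were 34.7% and 26.4%.

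The autophagy genes themselves were near balance. Of 37 members, 32 were tested, 9 higher in roots and 7 in leaves (28.1% and 21.9%), against 34.7% and 26.4% over all genes tested. Their median log2 fold change was 0.12 against 0.13 over all genes. The split was 16 and 3 with library size only and 6 and 7 without the new genes. The leaf count fell to 3 without root replicate 1, root replicate 3 or leaf replicate 1, and to 4 without leaf replicate 3. The most abundant member, TraesCS2A02G468300, had 88.3, 103 and 103 CPM in roots and 101, 59.4 and 117 CPM in leaves (adjusted p = 0.779 in edgeR). Metacaspases, cysteine proteases of plant cell death, had 16 higher in roots and 10 in leaves of 33 (48.5% and 30.3%). Their leaf count was 6 without root replicate 1. Metacaspase 4 (TraesCS3D02G322600) had 51.6, 52.0 and 52.9 CPM in roots and 29.6, 37.3 and 33.1 CPM in leaves. TraesCS3B02G471700, with the same peptidase domain, had 0.262 to 0.396 CPM in roots and 149, 160 and 141 CPM in leaves.

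Transcription factor families were counted against 34.7% of all genes tested higher in roots and 26.4% higher in leaves. The counts higher in roots and in leaves were 136 and 34 of 241 for WRKY factors, 138 and 55 of 252 for NAC, 220 and 92 of 442 for MYB and 111 and 14 of 176 for bZIP. They were 105 and 77 of 261 for AP2/ERF, 89 and 57 of 198 for bHLH, 45 and 24 of 109 for GRAS, 43 and 12 of 75 for homeobox, 29 and 8 of 58 for heat shock factors and 10 and 4 of 26 for SBP, whose root count was 6 without root replicate 1 and 4 without root replicate 2 or without the new genes. The share higher in roots was 44.95% for bHLH. It was 40.2% for AP2/ERF, 41.3% for GRAS and 38.5% for SBP, nearer to the 34.7% of all genes. TCP factors, known for limiting leaf growth, had 6 and 22 of 38, and GATA factors had 10 and 20 of 46. Members high in leaves were found in several families. The bHLH gene TraesCS5B02G054800 had 0.595 to 0.789 CPM in roots and 140, 130 and 155 CPM in leaves. The bZIP gene TraesCS5B02G059200 had 6.91, 7.64 and 7.42 CPM in roots and 173, 165 and 152 CPM in leaves. A new Myb-like gene (chromosome 3B, 406550133 to 406551902) had 0 to 0.0817 CPM in roots and 157, 247 and 153 CPM in leaves. The WRKY gene TraesCS3D02G341100 had 61.5, 44.6 and 36.1 CPM in roots and 144, 120 and 115 CPM in leaves, while WRKY gene TraesCS3A02G167200 overlapped (101, 84.1 and 91.3 CPM in roots, 75.9, 76.3 and 94.9 CPM in leaves) and was called only with library size only (0.44, edgeR adjusted p = 0.0275). The AP2 gene TraesCS1B02G076300 (Target of EAT1-B1), the homeobox gene TraesCS6B02G321100 and the TCP gene TraesCS3B02G470700 had leaf means of 256, 266 and 71.5 CPM and root means of 83.3, 91.4 and 15.6 CPM. NB-ARC resistance proteins, the intracellular immune receptors, had 686 higher in roots and 272 in leaves of 1261, and TraesCS1D02G018700 had 102, 90.7 and 93.2 CPM in roots and 3.00, 2.01 and 5.14 CPM in leaves.

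Some abundant genes did not separate the organs. The translation initiation factor gene TraesCS3D02G320600 had 209, 193 and 212 CPM in roots and 214, 177 and 234 CPM in leaves, with a 95% interval of the log2 fold change of -0.38 to 0.34. Peroxidase TraesCS2D02G583000 had 197, 205 and 184 CPM in roots and 193, 196 and 188 CPM in leaves (-0.28 to 0.33). A new profilin gene (chromosome 7B, 3336709 to 3339093), coding for an actin-binding protein, gave an interval of -0.31 to 0.35. The elongation factor 1-alpha genes TraesCS4D02G197200 and TraesCS4A02G107600 gave intervals of -0.28 to 0.32 and -0.29 to 0.40. Each of these 5 genes changed the sign of its small difference under at least 1 other scaling or library set.

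The same organs were then compared in untreated seedlings, in libraries that the 3-MA + NaCl comparison does not share. There, 46985 of 71882 genes were called (65.4%), 25843 higher in roots (36%) and 21142 higher in leaves (29.4%). Of 68199 genes tested in both, 31541 were called with the same sign in both, which is 68.8% of the calls under 3-MA + NaCl and 67.1% of the control calls. Across these genes the fold changes had r = 0.88, and their median size was 0.84 under 3-MA + NaCl and 1.07 in controls. With the organ difference under NaCl alone, that under 3-MA + NaCl had r = 0.926 across 72363 genes. The same sign was called in both for 35184 of these, which is 76.8% of the calls under 3-MA + NaCl. Genes found in roots without a count in leaves numbered 3141 in controls against 2093 under 3-MA + NaCl, with 1112 in both. Those found in leaves without a count in roots numbered 943 against 727, with 327 in both. Library sizes times TMM factors were 19024967 to 21182778 in control leaves and 28027374 to 34719282 in treated leaves. In roots they were 26762326 to 32822593 and 36735075 to 42011386. At the same CPM a count of 0 is therefore easier to reach in controls, and these numbers were not adjusted for it.

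**Figure D2:**
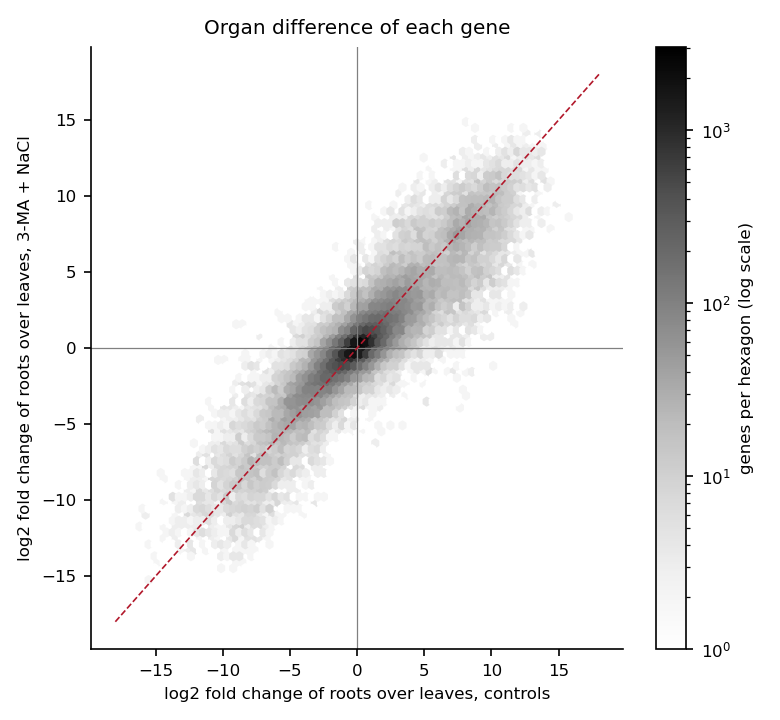
Log2 fold change of roots over leaves of each gene in controls (x axis) and under 3-MA + NaCl (y axis), with the number of genes per hexagon in grey (log scale) and the line of equal values dashed. The cloud follows the line with r = 0.88 across 68199 genes, and the genes off the line in the upper left and lower right changed sign.

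The organ difference itself was tested against that in controls with an interaction term over 12 libraries. Of 79590 genes 18334 were called (23%), 9911 moved towards roots (12.5%) and 8423 moved towards leaves (10.6%). Among genes also called in controls, the interaction went against the control difference in 5754 genes higher in control roots and with it in 1152, and against it in 6352 genes higher in control leaves and with it in 1234. A gene that went against it may have crossed to the other organ. By the size of the difference, over the genes called in the interaction and tested in both comparisons whether or not called in controls, 5355 genes higher in control roots had a smaller and 2893 a larger difference under 3-MA + NaCl (64.9% smaller), and 5975 and 3015 genes higher in control leaves (66.5% smaller). Among the 5754 root genes the median log2 change from control to 3-MA + NaCl was -0.81 in roots and 0.93 in leaves, and the leaf level was above that of control leaves in 85.4%. Among the 6352 leaf genes it was 0.66 in roots and -0.92 in leaves, and the root level was above that of control roots in 78.5%. These genes were picked by their control difference, which also enters the interaction, so that the choice favours a smaller difference and the counts are a description.

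**Figure D3:**
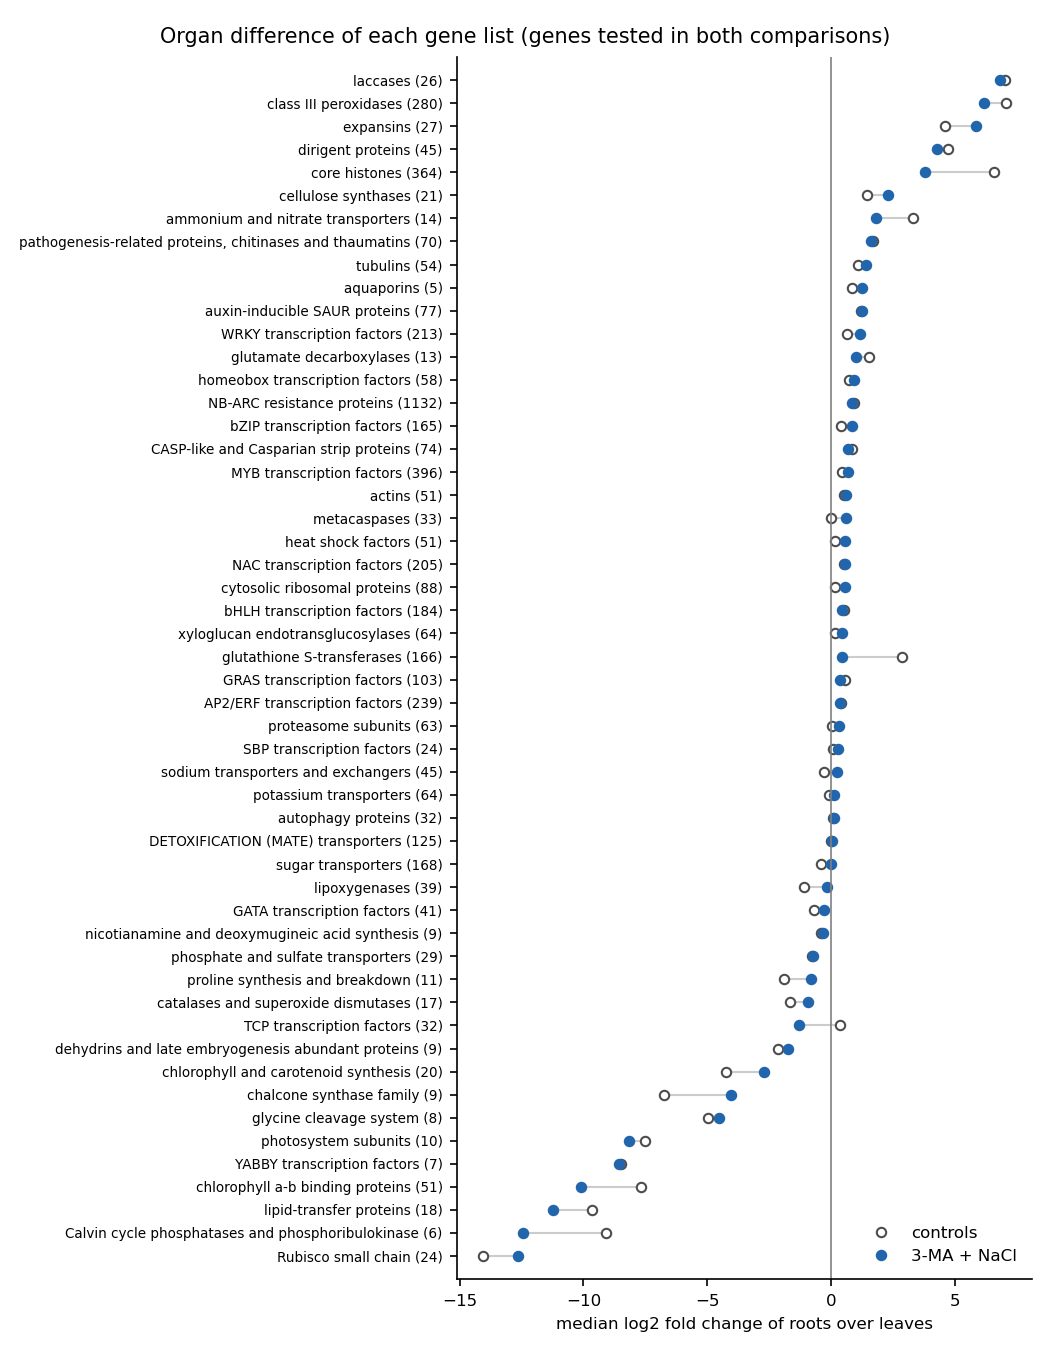
Median log2 fold change of roots over leaves of each gene list under 3-MA + NaCl (filled) and in controls (open), over the genes tested in both comparisons, whose number stands in brackets. Core histones lie at 3.77 and 6.57 and glutathione S-transferases at 0.42 and 2.87, whereas light-harvesting genes lie further on the leaf side under 3-MA + NaCl (-10.1 and -7.66). Chlorophyll and carotenoid synthesis lies less far on that side (-2.70 and -4.24).

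Among core histones 146 of 388 genes moved towards leaves and 5 towards roots in the interaction, and the median over genes tested in both comparisons was 3.77 in treated and 6.57 in control seedlings. The summed histone level was 5636 CPM in control roots and 1781 CPM in control leaves. Glutathione S-transferases had 67 genes moved towards leaves and 14 towards roots of 213, with medians of 0.42 and 2.87. The control sums were 3773 CPM in roots and 2525 CPM in leaves, and leaf replicates 1 and 3 under 3-MA + NaCl were at 6081 and 6706 CPM while replicate 2 was at 3171. Without leaf replicate 2 the leaf-ward counts were 179 of 393 for histones and 82 of 218 for glutathione S-transferases. TCP factors had 13 moved towards leaves and 2 towards roots of 41, with medians of -1.31 and 0.37. Chlorophyll a-b binding proteins, although lower in both organs than in controls (control sums of 359 CPM in roots and 69540 CPM in leaves), had 27 genes moved towards leaves and 0 towards roots of 78. Other photosynthesis lists did not share this. Chlorophyll and carotenoid synthesis had 9 moved towards roots and 3 towards leaves of 22, with medians of -2.70 and -4.24. The Rubisco small chain had 1 and 6 of 25, with medians of -12.63 and -14.04. Sodium transporters and exchangers had 15 moved towards roots and 0 towards leaves of 52, or 8 and 2 with library size only. Over the genes tested in each comparison, the sodium list had a median of 0.30 under 3-MA + NaCl, 0.34 under NaCl alone and -0.16 in controls. The 17 cytosolic ribosomal proteins that moved towards roots were 1 with library size only, and 0 moved towards leaves with the main scaling. Without control root replicates 2 or 3, root replicates 1, 2 or 3 or leaf replicates 1 or 3 that count was 8, 7, 8, 9, 10, 9 and 10. These counts stand against 12.5% of all genes tested moved towards roots and 10.6% towards leaves. Class III peroxidases, with 40 genes moved each way of 447, lay below both shares.

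Several root genes with low levels in control leaves had higher leaf levels under 3-MA + NaCl. Phenylalanine ammonia-lyase TraesCS6B02G258400 had 1236 CPM in control roots and 1.31 CPM in control leaves, against 772.5 and 32.1 CPM under 3-MA + NaCl, an interaction of -5.30 ± 0.81 (SE, edgeR adjusted p = 0.000568). TraesCS6D02G212200 gave -5.15 and ADH1A gave -5.27, with control leaf means of 1.55 and 1.16 CPM, and ADH1D gave -2.73. The CASP-like gene TraesCS1A02G248700 had 51.2 CPM in control roots and 0.0157 CPM in control leaves, against 100.5 and 4.24 CPM (interaction -6.68). Xyloglucan endotransglucosylase TraesCS2D02G431500 had 24.0 and 0.588 CPM in controls, against 117 and 123 CPM (-5.35). Peroxidase TraesCS2D02G583000, equal between treated organs, had 202 and 23.8 CPM in controls (-3.07). Leaf replicate 2 was the lowest leaf library in all of these but the last. Without leaf replicate 2 the interactions were -5.70 for TraesCS6B02G258400, -5.58 for TraesCS6D02G212200, -5.66 for ADH1A, -3.03 for ADH1D, -7.07 for TraesCS1A02G248700 and -5.79 for TraesCS2D02G431500, each called.

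**Figure D4:**
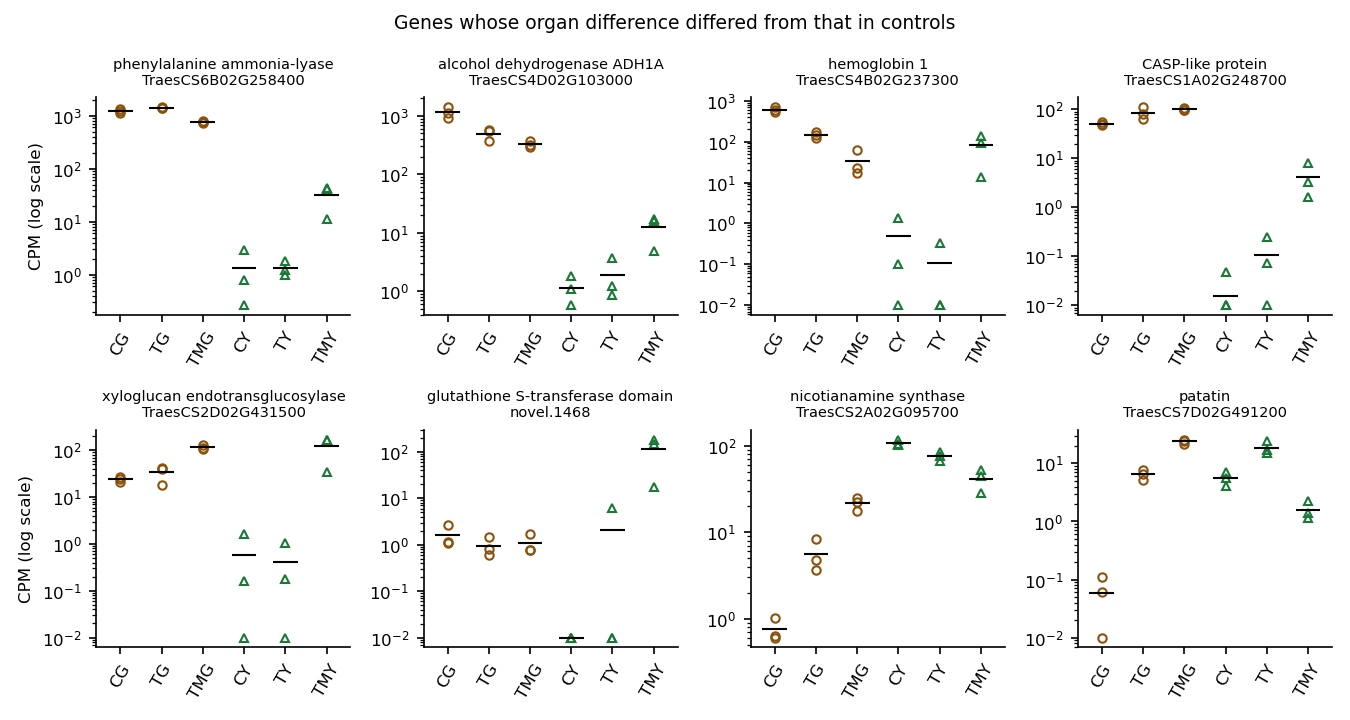
CPM (log scale) of 8 genes in each of the 18 libraries, with roots as brown circles and leaves as green triangles, for control (CG, CY), NaCl (TG, TY) and 3-MA + NaCl (TMG, TMY). Horizontal lines are group means and libraries without a count are drawn at 0.01. Hemoglobin 1 lies at 13.9 to 135 CPM in treated leaves, above each control leaf, and at 17.1 to 60.6 CPM in treated roots, below each control root.

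Named by the size of the interaction, the genes moved towards leaves included glutathione S-transferases and glycosyltransferases. A new glutathione S-transferase gene (chromosome 1D, 262247306 to 262248447) had 0.762, 0.786 and 1.66 CPM in treated roots and 147, 17.4 and 184 CPM in treated leaves, whereas control leaves had no count (interaction -15.33, edgeR adjusted p = 0.000282). Glycosyltransferase TraesCS6A02G331300, an enzyme that adds sugars to small molecules, had no count in treated roots and 29.0, 10.2 and 52.5 CPM in treated leaves, with 0.383 and 0.205 CPM in control roots and leaves (-13.60). The remaining genes had lower root levels than in controls. Glutathione S-transferase gene TraesCS6A02G139000, a new one on 4A (66558454 to 66559477) and peroxidase TraesCS2B02G126300 had 10.8, 24.7 and 34.3 CPM in control roots and no count in control leaves, and 0.263, 0.827 and 0.0528 CPM in treated roots. In treated leaves they had 3.72, 0.569 and 0.113 CPM (-15.15, -12.01 and -14.11). With a group at 0 these interaction values depend on the prior count and are no bounds.

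The genes with the largest moves towards roots included patatin TraesCS7D02G491200, a lipid hydrolase. It had 24.3, 22.0 and 25.8 CPM in treated roots and 1.15, 2.27 and 1.39 CPM in treated leaves, but 0.0577 CPM in control roots and 5.60 CPM in control leaves (interaction 10.42 ± 0.56, SE, edgeR adjusted p = 5.27e-07). Against NaCl without 3-MA it was called as well (5.44), with 6.47 CPM in roots and 18.7 CPM in leaves there. Peroxidase TraesCS1D02G080800 had 96.8, 78.9 and 85.8 CPM in treated roots and a single count in treated leaves, with 0.512 CPM in control roots (9.69). That interaction was not called without control leaf replicate 1 (5.56, adjusted p = 1). Peroxidase TraesCS2B02G125800 had 4.055 CPM in treated roots and 0 in control roots with 20.7 and 28.6 CPM in leaves (10.39). With control roots at 0 that value depends on the prior count and is no bound. Fatty acyl-CoA reductase TraesCS5D02G372300, which makes wax alcohols, and glycosyltransferase TraesCS5A02G257100 had lower leaf levels, at 1.05 and 0.213 CPM in treated leaves against 63.0 and 19.4 CPM in control leaves (11.39 and 9.31). The interaction of TraesCS5A02G257100 was not called without root replicate 2 (6.48, adjusted p = 1), and the treated organ difference of TraesCS5D02G372300 (-2.52, adjusted p = 0.0486) was lost in 5 of 6 fits without a library, namely root replicate 1, 2 or 3 or leaf replicate 2 or 3 (0.139, 0.0842, 0.106, 0.0626 and 0.163), and with library size only (0.0681).

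Nicotianamine synthase, which makes a metal chelator, was a leaf gene in controls: TraesCS2A02G095700 and TraesCS2D02G094200 had 0.752 and 0.203 CPM in control roots and 108 and 115 CPM in control leaves. Under 3-MA + NaCl they had 21.8 and 10.1 CPM in roots and 41.5 and 52.0 CPM in leaves, with interactions of 6.23 ± 0.36 and 6.74 ± 0.31 (SE). Thiamine thiazole synthase gave 2.75 and the initiation factor gene TraesCS3D02G320600 gave 1.39. Potassium transporter TraesCS2D02G287300 had 232 and 40.4 CPM in control roots and leaves against 56.0 and 52.7 CPM (-2.44), and P5CS TraesCS1B02G290600 gave -1.38 with 9.57 CPM in control leaves against 27 CPM.

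The higher organ was not the same in 1475 genes, called with opposite signs in controls and under 3-MA + NaCl and in the interaction. Of these 655 went from higher in roots to higher in leaves and 820 the other way. The count of 1475 was 2169 without leaf replicate 2, and 1090, 1080 and 1150 without root replicate 1, 2 or 3. The plasma membrane ATPase TraesCS2B02G530500 (chromosome 2B, 725959929 to 725966383, minus strand), the proton pump that powers ion transport, had 422, 433 and 507 CPM in treated roots and 865, 900 and 847 CPM in treated leaves, with 1031 and 603 CPM in control roots and leaves (interaction -1.71). Aconitase and malic enzyme genes went the same way: a new aconitase gene (chromosome 4D, 488650176 to 488657393) and aconitase TraesCS4B02G335100 had 103 and 98.8 CPM in treated roots, 297 and 215 CPM in treated leaves, 242 and 136 CPM in control roots and 66.0 and 63.15 CPM in control leaves (-3.40 and -2.24). Malic enzyme TraesCS1B02G141700 had 87.3, 68.0 and 53.4 CPM in treated roots and 267, 69.6 and 223 CPM in treated leaves, with 244 and 95.6 CPM in controls (-2.77). Leaf replicate 2 was the lowest leaf library in the aconitases and malic enzyme, and in malic enzyme it lay within the range of the roots. Without it the interactions of TraesCS4B02G335100 and malic enzyme were -2.56 and -3.17. The treated call of TraesCS4B02G335100 was lost without root replicate 1 or 2 or leaf replicate 1 (adjusted p = 0.0581, 0.0578 and 0.0631), and that of malic enzyme without root replicate 2 or 3 or leaf replicate 1 or 3 (0.0739, 0.0885, 0.0917 and 0.0615) or with library size only (0.0501).

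**Figure D5:**
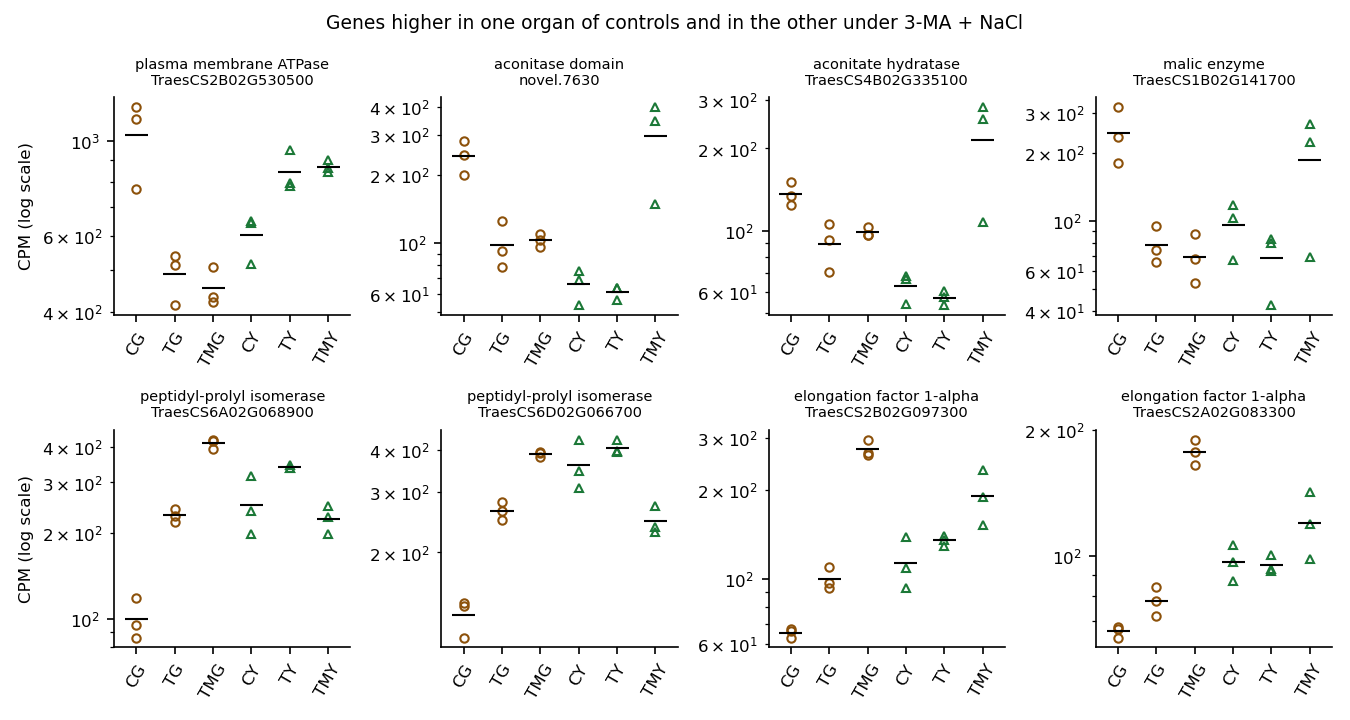
CPM (log scale) of 8 genes in each of the 18 libraries, with roots as brown circles and leaves as green triangles, for control (CG, CY), NaCl (TG, TY) and 3-MA + NaCl (TMG, TMY), and group means as lines. The upper 4 genes are higher in roots of controls and in leaves under 3-MA + NaCl, and the lower 4 the reverse.

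The 4 most abundant genes that changed to the root side were a pair of isomerase genes and a pair of elongation factor genes. Peptidyl-prolyl cis-trans isomerase, which helps proteins fold, had 419, 392 and 424 CPM in treated roots and 227, 249 and 198 CPM in treated leaves as TraesCS6A02G068900, with 99.97 CPM in control roots and 251 CPM in control leaves (interaction 2.20). TraesCS6D02G066700 had 392, 390 and 382 CPM in treated roots and 229, 274 and 237 CPM in treated leaves, with 132 and 361 CPM in controls (2.11). The elongation factor 1-alpha genes TraesCS2B02G097300 and TraesCS2A02G083300 had 274 and 177 CPM in treated roots and 191 and 120 CPM in treated leaves, with 65.6 and 66.1 CPM in control roots and 113 and 96.7 CPM in control leaves (1.31 and 1.11). Their treated differences were 0.52 and 0.57. They were not called without the new genes (adjusted p = 0.168 and 0.0952), without root replicate 2 or 3 (0.0958 and 0.126, 0.0656 and 0.0738) or without leaf replicate 1 (0.0893 and 0.0515), and the first was not called without root replicate 1 (0.0864) or with TMM factors over the libraries of the fit (0.0684).

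Against seedlings given NaCl alone, the organ difference was called in 8299 of 79864 genes (10.4%), 3867 moved towards roots (4.84%) and 4432 towards leaves (5.55%). This count depended on single libraries, being 13188 without leaf replicate 2 and 5370 without NaCl root replicate 2. Without root replicate 1, 2 or 3 it was 4611, 4650 and 5030, and without leaf replicate 1 it was 5149. Core histones had 88 genes moved towards leaves and 0 towards roots of 385, with a median of 6.28 under NaCl alone. Glutathione S-transferases had 46 and 3 of 214 (2.85) and chlorophyll a-b binding proteins 8 and 0 of 60 (-8.44). TCP factors had 3 and 0 of 40 (-0.38), and sodium transporters and exchangers 6 and 4 of 54 (0.34). Hemoglobin 1 (TraesCS4B02G237300, chromosome 4B, 495125778 to 495126865, plus strand), which scavenges nitric oxide when oxygen is low, had 17.1, 22.8 and 60.6 CPM in treated roots and 135, 13.9 and 93.5 CPM in treated leaves. NaCl roots and leaves had 146 and 0.1085 CPM, and control roots and leaves 601 and 0.490 CPM, so that the interaction was -11.63 ± 1.34 (SE, edgeR adjusted p = 0.000484). Between treated organs it was not called with all libraries (-1.27, adjusted p = 0.181) and was called higher in leaves without leaf replicate 2 (-1.77, adjusted p = 0.0066). The auxin efflux carrier gene TraesCS3B02G361500 had 11.2, 14.2 and 11.6 CPM in treated roots and no count in treated leaves, with 13.9 and 0.131 CPM under NaCl (5.02, adjusted p = 0.0234). That call was lost without NaCl leaf replicate 1 or 3 or leaf replicate 1 (0.0527, 0.0548 and 0.058). The Rubisco small chain gene TraesCS2D02G065300 had 0.108 CPM in treated roots and 215 CPM in treated leaves, with 0 and 587 CPM under NaCl (6.31, adjusted p = 0.0346), and its call was lost without NaCl root replicates 1, 2 or 3, NaCl leaf replicates 1, 2 or 3, root replicates 1 or 3 or leaf replicates 1 or 3 (0.0538 to 0.122). With a group at 0 the values of TraesCS3B02G361500 and TraesCS2D02G065300 depend on the prior count and are no bounds.

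The genes that the study also measured by qRT-PCR were mostly low in the treated libraries. Metacaspase-domain gene TraesCS4D02G358100 had 0.381, 1.00 and 1.03 CPM in roots and 0.0864, 0.479 and 0.0357 CPM in leaves (log2 fold change 1.98, edgeR adjusted p = 0.0545). It was called without leaf replicate 2 (3.60, adjusted p = 0.00264) or root replicate 1 (2.31, 0.0488), with DESeq2 (1.94, 0.0418) and with library size only (2.26, 0.0315). In controls it was higher in leaves, with 7.85 and 50.5 CPM, and the interaction was 4.67. A second such gene, TraesCS4B02G381800, had 8 counts in roots and 36 in leaves and was not tested. Kinase-domain genes TraesCS5D02G061400 and TraesCS5B02G109300 were higher in roots (3.19, adjusted p = 8.36e-05, and 1.16, adjusted p = 0.0267), with 12.7 and 2.87 CPM in roots and 1.40 and 1.28 CPM in leaves. The second call was lost without any of root replicates 1, 2 and 3 or leaf replicates 1 and 3 (0.0974, 0.0509, 0.0553, 0.0775 and 0.0714), without the new genes (0.0535) and with 18 libraries in one fit (0.0877). Kinase-domain gene TraesCS3D02G500800 was higher in leaves, with 2.23, 2.79 and 2.72 CPM in roots and 13.9, 6.61 and 23.9 CPM in leaves (-2.52, adjusted p = 0.00109). The autophagy gene TraesCS6B02G214000 had no count in roots and 6 in leaves, too few to test.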

How the data were processed

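Members and gene lists were chosen with earlier results of these data known. The deposited table held, per the file headers, raw counts and FPKM of each library. For both, the authors sequenced paired 150 bp reads and assigned them to annotated and newly assembled genes of the Chinese Spring assembly. The counts deposited by the authors were not normalized, and the FPKM values deposited by the authors are per gene length and depth. The submitters' processing notes name HISAT2 2.0.5 and Bowtie 0.12.2 without a role, and the counting tool and its strand setting are not given in the sources used here.

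Counts of the 6 libraries were tested with edgeR 4.0.16 (R 4.3.3) by glmQLFit and glmQLFTest, after filterByExpr and with TMM factors over 18 libraries, and p-values were adjusted by Benjamini-Hochberg over all genes tested. Interaction contrasts used 12 libraries. CPM is not per gene length, so levels were compared between organs and not between genes. The floor for a group without counts was 3 counts over its 3 libraries, and 95% counting intervals cover counting error only. DESeq2 1.42.0, limma 3.58.1 on log2(FPKM + 1), other scalings, filters, a replicate block and fits without each library were the alternatives. The fits were tested on simulated data.

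Genes were named by rule: the 8 most abundant strongly different and the 5 with the largest fold on each side, the member of each list highest in roots and in leaves, 5 abundant genes alike in both organs, the 5 and 3 largest interactions each way against controls and NaCl, the 4 most abundant reversals each way, and 6 genes of the study's qRT-PCR. Of the list members and interactions against NaCl named by this rule, those described in the text are a part.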

Additional observations from a re-analysis of the deposited data

Results flagged for a closer look

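Each value here is the log2 difference between the organ difference under 3-MA + NaCl and that in controls or NaCl, called in edgeR's interaction test, and a negative value is a move towards leaves. Where a group had no count, the value depends on the prior count and is no bound. Calls that were lost without a library are given with their genes above. Towards leaves against controls went phenylalanine ammonia-lyase TraesCS6B02G258400 (-5.30) and TraesCS6D02G212200 (-5.15), ADH1A TraesCS4D02G103000 (-5.27) and ADH1D TraesCS4B02G106300 (-2.73). So did peroxidases TraesCS2D02G583000 (-3.07) and TraesCS2B02G126300 (-14.11), the glutathione S-transferase genes TraesCS6A02G139000 (-15.15), a new gene on 1D (-15.33) and a new gene on 4A (-12.01), and glycosyltransferase TraesCS6A02G331300 (-13.60). The CASP-like gene TraesCS1A02G248700 (-6.68), xyloglucan endotransglucosylase TraesCS2D02G431500 (-5.35), potassium transporter TraesCS2D02G287300 (-2.44) and P5CS TraesCS1B02G290600 (-1.38) followed. Plasma membrane ATPase TraesCS2B02G530500 (-1.71), aconitases on 4D (a new gene, -3.40) and TraesCS4B02G335100 (-2.24) and malic enzyme TraesCS1B02G141700 (-2.77) changed their higher organ.

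Towards roots against controls went fatty acyl-CoA reductase TraesCS5D02G372300 (11.39), patatin TraesCS7D02G491200 (10.42), peroxidases TraesCS2B02G125800 (10.39) and TraesCS1D02G080800 (9.69) and glycosyltransferase TraesCS5A02G257100 (9.31). Nicotianamine synthases TraesCS2A02G095700 (6.23) and TraesCS2D02G094200 (6.74), the metacaspase-domain gene TraesCS4D02G358100 (4.67), thiamine thiazole synthase TraesCS7A02G376800 (2.75) and the initiation factor gene TraesCS3D02G320600 (1.39) followed. Peptidyl-prolyl isomerases TraesCS6A02G068900 (2.20) and TraesCS6D02G066700 (2.11) and elongation factor 1-alpha genes TraesCS2B02G097300 (1.31) and TraesCS2A02G083300 (1.11) changed their higher organ. Against NaCl, the Rubisco small chain gene TraesCS2D02G065300 (6.31) and the auxin efflux carrier gene TraesCS3B02G361500 (5.02) moved towards roots and hemoglobin 1 TraesCS4B02G237300 (-11.63) towards leaves.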

How the results depend on the processing

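The count of genes called between organs was 45828 and lay between 40726 and 50045 without a library. Against NaCl the interaction count was 13026 with DESeq2 in place of 8299, and 4611 to 13188 without a library. The numbers of the replicates did not pair the organs: deviations of same-numbered libraries had r = 0.061, 0.159 and 0.058, and root replicate 1 correlated best with leaf replicate 3 (0.088). With the replicate block 43491 genes were called between organs, 16407 and 6778 in the interactions against controls and NaCl, and 1363 with opposite signs in place of 1475. Among 2307 values of named genes under alternatives, 2198 kept direction and call, 58 lost the call, 17 gained it and 34 changed sign, all of the last in genes that were not called with all libraries. With the block TraesCS4D02G358100 (2.20, adjusted p = 0.0431) and the new ammonium transporter gene on 1B (-0.63, 0.0318) gained the call between organs, TraesCS2D02G065300 lost that of its interaction against NaCl (6.34, 0.0576), and the leaf count of the actins was 3.

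With library size only, the log2 fold change was 0.25 for TraesCS3D02G320600, 0.21 for TraesCS2D02G431500 (0.22 with the replicate block) and 0.27 for TraesCS7B02G008100. With TMM over the libraries of the fit and with DESeq2 it was -0.04 and -0.03 for TraesCS2D02G583000, -0.04 and -0.04 for TraesCS4D02G197200, 0.00 and 0.00 (below 0) for TraesCS4A02G107600 and -0.04 and -0.03 for the new profilin gene. Without the new genes it was -0.17 for TraesCS2D02G583000 and TraesCS4D02G197200, -0.14 for TraesCS4A02G107600, -0.11 for TraesCS2D02G287300 and TraesCS2A02G468300, -0.10 for TraesCS7A02G067800 and -0.03 for TraesCS3A02G167200. Leaving out a library gave -0.13 to 0.07 for TraesCS3D02G320600, -0.01 to 0.07 for TraesCS2D02G583000, -0.02 to 0.04 for TraesCS4D02G197200 and -0.01 to 0.17 for TraesCS4A02G107600. It gave -0.27 to 0.43 for TraesCS2D02G287300, -0.51 to 0.24 for TraesCS2D02G431500, -1.16 to 0.30 for TraesCS3A02G517100 and -0.15 to 0.29 for TraesCS2A02G468300. It gave -0.03 to 0.03 for TraesCS7B02G008100, -0.09 to 0.22 for TraesCS7A02G067800 and -0.06 to 0.08 for the new profilin gene. The cause of these changes was not tested. With 3 libraries an organ, differences near the scaling shift of 0.28 are at the limit of these data.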
